A study of Homo sapiens with 34 samples.

Results

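RNA-seq counts were compared between H1 human ESCs with an shRNA against NKX2-5 and H1 ESCs with an shRNA against ZNF503, both at day 2 of directed differentiation along the cardiac lineage. The comparison was defined by the sample labels and held 4 of the 34 libraries of the series, 2 per line. H1 is an established human embryonic stem cell line. Both lines were made with GIPZ lentiviral vectors and puromycin selection, and each carries the single shRNA, of several tried per gene, with the strongest knockdown by real-time PCR. Differentiation was started with CHIR99021, a GSK3β inhibitor that activates canonical WNT signaling, and continued with IWP2, an inhibitor of WNT secretion. The 2 WT libraries of day 2, H1 cells infected with a GFP shRNA or an empty vector, and the 2 ZEB2 shRNA libraries of day 2 were used to estimate the spread and to show where control cells and another knockdown lie. The 8 day 0 libraries of the same 4 lines, undifferentiated ESCs, were used to ask what differed before differentiation. Replicates are given as biological replicates without a description of separate cultures, so the p-values below measure only the spread between these libraries.

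NKX2-5 is a homeodomain transcription factor best known from cardiac progenitors and myocardium, where it acts with GATA and T-box factors. ZNF503 is a zinc finger protein of the NET family, which acts mainly as a transcriptional corepressor in the embryo. When WNT is activated in pluripotent cells, they pass through a state resembling the primitive streak, in which NODAL and WNT signals switch on T-box and homeobox genes such as TBXT, EOMES, MIXL1 and GSC, and from which mesoderm, including the cardiac lineage, and definitive endoderm arise.

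The deposited counts of the 4 libraries summed to between 20897109 and 87850810 reads with 1 RefSeq row per gene. The replicates correlated at 0.9948 for NKX2-5 shRNA and 0.9954 for ZNF503 shRNA (Spearman, across genes), and their counts differed by more than sampling noise. The targeted genes could not check the labels at this day. NKX2-5 had 6 and 0 counts in the NKX2-5 shRNA libraries, 6 and 0 in the ZNF503 shRNA libraries and 6 and 4 in WT, which is close to the limit of detection in all lines. ZNF503 read 1.44 and 1.72 CPM (counts scaled to a common library size) in the NKX2-5 shRNA libraries, 1.01 and 1.85 in the ZNF503 shRNA libraries and 1.16 and 2.12 in WT. The lines overlapped, and the difference of 0.22 ± 0.38 (log2, SE; adjusted p = 0.685, edgeR quasi-likelihood test) took the opposite sign, -0.25, without replicate 1 of ZNF503 shRNA. A loss of ZNF503 RNA in the line labelled ZNF503 shRNA was therefore not detectable at this level of expression. ZEB2, a zinc finger E-box factor that neither shRNA targets, read 4.98 and 4.32 CPM in the NKX2-5 shRNA libraries, 10.5 and 14.4 in the ZNF503 shRNA libraries and 19.3 and 19 in WT. It was lower in the NKX2-5 shRNA line (log2 fold change -1.39 ± 0.18, adjusted p = 4.1e-05, edgeR). In the ZEB2 shRNA libraries, where it is the target, it read 11.6 and 13.1 CPM. That is above the NKX2-5 shRNA libraries and within the range of the ZNF503 shRNA libraries.

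The lines differed widely at day 2. Of 16521 genes tested, 657 differed by at least 4-fold at 10% FDR, which is 3.98% of those tested. Of these, 388 were higher in NKX2-5 shRNA cells (2.35%) and 269 were lower (1.63%). Without a fold threshold, 6520 genes passed 5% FDR (39.5%), 3265 of them higher (19.8%) and 3255 lower (19.7%), so that a gene list has to be read against a background of about 1 gene in 5 in each direction. The 2 libraries of one line lay wholly above those of the other for 385 of the 388 higher genes and 267 of the 269 lower genes, against 70.0% of all genes tested. Because the genes were chosen on the same libraries, their position relative to WT is a description. Among the 388 higher genes the median log2 fold change against WT was 0.71 in NKX2-5 shRNA cells and -2.13 in ZNF503 shRNA cells, and at 5% FDR 285 of them were lower than WT in ZNF503 shRNA cells and 147 were higher than WT in NKX2-5 shRNA cells. Over all genes tested, 26.7% passed 5% FDR between NKX2-5 shRNA and WT, 13.0% above WT and 13.6% below it. Between ZNF503 shRNA and WT 26.9% passed, 13.1% above WT and 13.8% below it. Among the 269 lower genes the medians against WT were -1.09 in NKX2-5 shRNA cells and 1.58 in ZNF503 shRNA cells, with 159 higher than WT in ZNF503 shRNA cells and 88 lower than WT in NKX2-5 shRNA cells.

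**Figure D1:**
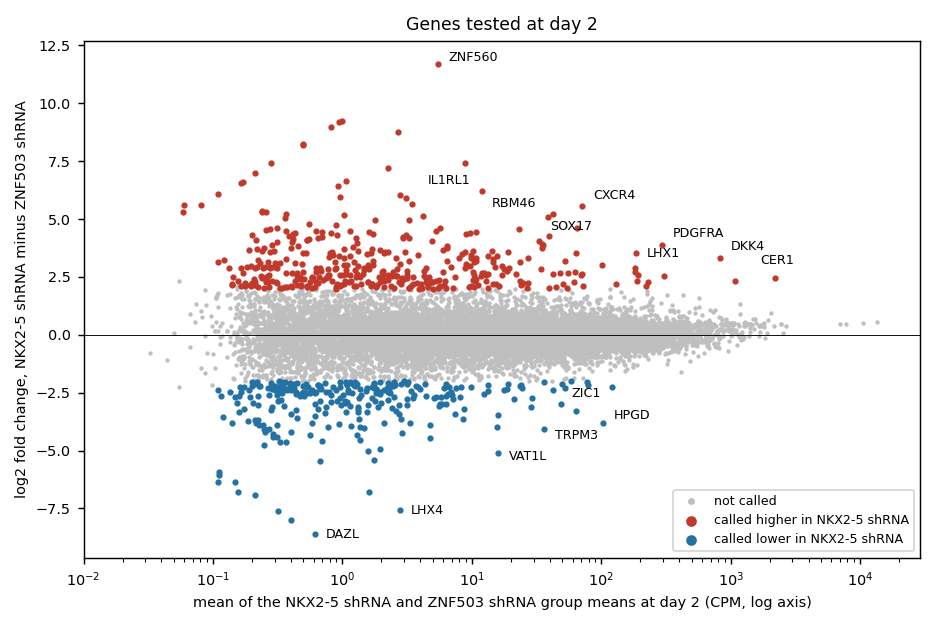
Log2 fold change (NKX2-5 shRNA minus ZNF503 shRNA) of the 16521 genes tested at day 2 against the mean level of both lines in CPM, on a log axis, with the 388 genes called higher in red and the 269 called lower in blue. CXCR4, PDGFRA, DKK4, LHX1 and CER1 are called at high levels, whereas the largest fold changes, such as that of ZNF560, belong to genes that were at or near 0 in one line.

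Genes of definitive endoderm were higher in NKX2-5 shRNA cells than in ZNF503 shRNA cells. Of 14 members tested, 11 were higher at 5% FDR, 9 of these by at least 4-fold, and 1 was lower, with a median log2 fold change of 2.54 beside -0.01 over all genes tested. CXCR4, the chemokine receptor used to sort definitive endoderm, read 135 and 145 CPM in the NKX2-5 shRNA libraries, 3.03 and 2.90 in the ZNF503 shRNA libraries, 52.7 and 60.4 in WT and 74.4 and 76.1 in ZEB2 shRNA. The ZNF503 shRNA libraries lay far below all others and the NKX2-5 shRNA libraries above WT, a difference of 5.55 ± 0.13 between the lines (log2, SE; adjusted p = 1.4e-12, edgeR). SOX17, an HMG box factor of the endoderm, read 54.6 and 69.7 CPM in the NKX2-5 shRNA libraries, 3.32 and 4.41 in the ZNF503 shRNA libraries and 57.0 and 62.6 in WT. Here the NKX2-5 shRNA libraries spanned the level of WT, and the lines differed by 4.07 ± 0.18 (adjusted p = 6.1e-10). In these bulk samples, fewer cells of a type and less RNA per cell cannot be told apart.

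SHISA2, which retains WNT and FGF receptors in the endoplasmic reticulum, read 300 and 340 CPM in NKX2-5 shRNA, 41.0 and 45.0 in ZNF503 shRNA and 159 and 158 in WT, with a difference of 2.90 ± 0.09 (adjusted p = 2.5e-11). PRDM1, a zinc finger repressor, read 20.5 and 18.1 CPM in NKX2-5 shRNA, 1.91 and 2.61 in ZNF503 shRNA and 19.2 and 19.8 in WT (3.17 ± 0.18, adjusted p = 8.6e-09). The homeobox gene HHEX was higher by 2.05 and the GATA factor gene GATA6 by 2.63 on the log2 scale, and both were within 0.46 of WT in NKX2-5 shRNA cells. FOXA1, a forkhead gene, was the member that was lower, at 0.292 and 0.617 CPM against 1.43 and 1.71 (log2 fold change -1.90). That call was lost without replicate 1 of NKX2-5 shRNA (log2 fold change -1.32, adjusted p = 0.0757).

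The primitive streak genes were higher in NKX2-5 shRNA cells, but unequally so. Of 14 tested members 10 were higher at 5% FDR and 2 were lower, with a median of 0.74. The study names GSC, TBXT, MIXL1, EOMES, CER1, FGF17 and LHX1 for their course in these samples, so these 7 genes are not independent evidence of a direction. Its text gives no direction between these lines for them. From their cluster it concludes that the first steps of differentiation were normal in the NKX2-5, ZNF503 and ZEB2 shRNA cells. LHX1, a LIM homeobox gene of the anterior streak and head organizer, read 314 and 365 CPM in NKX2-5 shRNA, 24.6 and 35.2 in ZNF503 shRNA, 294 and 336 in WT and 311 and 358 in ZEB2 shRNA. Only the ZNF503 shRNA libraries stood apart, and the lines differed by 3.53 ± 0.15 (adjusted p = 4.2e-10). FGF17, an FGF ligand of the streak, had the same order, with 277 and 352 CPM, 56.6 and 68.9 CPM, and 354 and 408 CPM in NKX2-5 shRNA, ZNF503 shRNA and WT (2.33 ± 0.13, adjusted p = 5.9e-09).

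GSC, a homeobox repressor of the organizer, read 107 and 128 CPM in NKX2-5 shRNA, 36.2 and 38.3 in ZNF503 shRNA and 72.3 and 67.1 in WT, so that WT lay between the lines, which differed by 1.66 ± 0.11 (adjusted p = 4.4e-08). OTX2, an anterior homeobox gene, and FOXA2, a forkhead gene of anterior streak and endoderm, also differed, by 1.57 ± 0.07 and 1.55 ± 0.14, with WT between the lines. The differences were smaller for the T-box gene EOMES (0.80 ± 0.11), the homeobox gene MIXL1 (0.90 ± 0.17) and NODAL, a TGFβ ligand (0.67 ± 0.10), with adjusted p-values of 5.2e-05, 0.00064 and 9.2e-05. EOMES read 522 and 588 CPM in NKX2-5 shRNA, 275 and 365 in ZNF503 shRNA and 599 and 655 in WT. Its ZNF503 shRNA libraries were again the lowest.

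TBXT, the T-box gene that defines the streak, read 34.3 and 48.4 CPM in NKX2-5 shRNA, 30.6 and 41.5 in ZNF503 shRNA and 54.6 and 57.2 in WT. The libraries of the lines overlapped, and the difference of 0.20 ± 0.16 did not pass the test (adjusted p = 0.342). Against WT the log2 fold change was -0.64 in ZNF503 shRNA cells (adjusted p = 0.00752) and -0.44 in NKX2-5 shRNA cells (adjusted p = 0.0510). Without replicate 2 of NKX2-5 shRNA the difference between the lines was -0.07, and without replicate 1 of ZNF503 shRNA it was -0.02. EVX1, a homeobox gene of the posterior streak, differed by 0.56 ± 0.41 (adjusted p = 0.306). For WNT3, a streak WNT ligand, and SP5, a zinc finger target of WNT, the differences of 0.43 and 0.42 were lost without replicate 2 of NKX2-5 shRNA (0.34 and 0.24) and without replicate 1 of ZNF503 shRNA (0.19 and 0.29). FGF8, an FGF ligand, had a log2 fold change of -1.22 that failed the test without replicate 1 of ZNF503 shRNA (-0.86, adjusted p = 0.0600). MESP1, a bHLH factor of nascent mesoderm, was at 0.237 and 0.264 CPM in NKX2-5 shRNA and at 0.545 and 0.570 in ZNF503 shRNA. Its difference of -1.16 passed the test narrowly (adjusted p = 0.0395) and failed it when any of the 4 libraries compared was left out (-1.22 to -1.05).

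**Figure D2:**
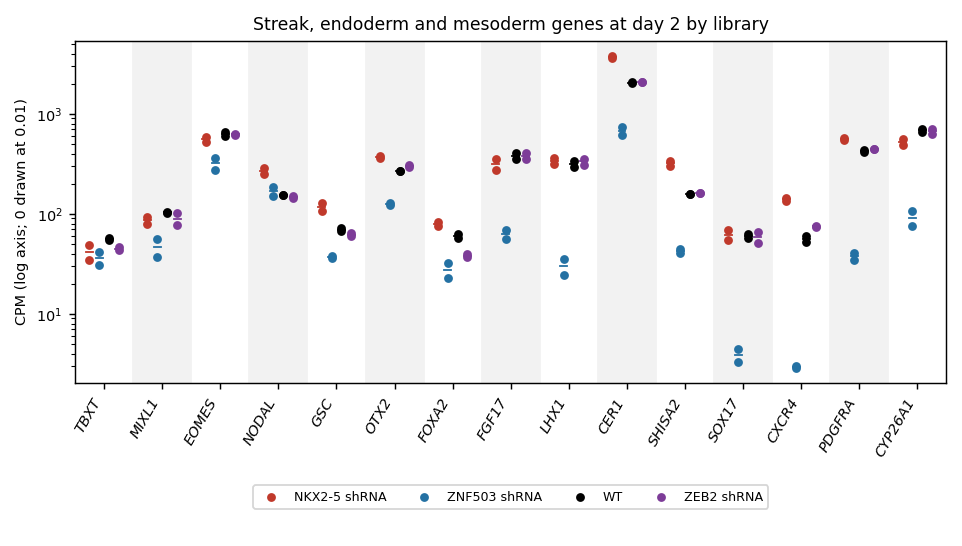
CPM on a log axis of 15 streak, endoderm and mesoderm genes in each day 2 library, with 2 points per line and a dash at their mean. For TBXT the points of the NKX2-5 shRNA and ZNF503 shRNA lines overlap, and the blue points of ZNF503 shRNA drop far below the others for LHX1, SOX17, CXCR4, PDGFRA and CYP26A1.

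The list of nascent and cardiac mesoderm had 13 of 22 tested members higher and 3 lower at 5% FDR, 5 and 1 of these by at least 4-fold, with a median of 1.17. PDGFRA, a receptor of early mesoderm, read 569 and 544 CPM in NKX2-5 shRNA, 34.4 and 40.7 in ZNF503 shRNA, 415 and 431 in WT and 444 and 450 in ZEB2 shRNA. The ZNF503 shRNA libraries were below all others, by 3.90 ± 0.09 relative to NKX2-5 shRNA (adjusted p = 1.4e-12). TBX3, a T-box repressor, and FOXF1, a forkhead gene of lateral mesoderm, were higher by 3.04 ± 0.20 and 3.72 ± 0.39. FOXF1 was at 3.06 and 3.17 CPM in NKX2-5 shRNA and at 0.182 and 0.380 in ZNF503 shRNA. LEF1, a nuclear partner of β-catenin, went the other way, with 4.16 and 5.59 CPM in NKX2-5 shRNA, 20.3 and 23.1 in ZNF503 shRNA and 9.45 and 11.3 in WT (-2.18 ± 0.18, adjusted p = 5e-07).

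Over the nascent and cardiac mesoderm list, the median against WT was -0.58 in NKX2-5 shRNA and -2.01 in ZNF503 shRNA. At 5% FDR 9 of its 22 tested members were below WT and 2 above it in NKX2-5 shRNA. In ZNF503 shRNA 15 were below and 1 above. Of all genes tested, 13.6% and 13.8% were below WT in these lines, and 13.0% and 13.1% above it. Some mesoderm genes were below WT in both lines. MESP1 read 6.40 and 6.82 CPM in WT, against at most 0.570 CPM in the 4 libraries of NKX2-5 shRNA and ZNF503 shRNA. APLNR, a receptor of nascent mesoderm, read 10.9 and 13.7 CPM in NKX2-5 shRNA, 4.41 and 6.46 in ZNF503 shRNA and 78.9 and 92.8 in WT. TBX6, a T-box gene of paraxial mesoderm, read 4.45 and 5.59 CPM, 2.23 and 2.42 CPM, and 12.6 and 11.6 CPM in the same order. EVX1 was below 1 CPM in both lines and at 4.11 and 5.83 CPM in WT. Of these 4 genes APLNR and TBX6 were higher in NKX2-5 shRNA than in ZNF503 shRNA, by 1.23 and 1.11 on the log2 scale. KDR, the VEGF receptor of vascular and cardiac progenitors, had another order, with 93.5 and 81.9 CPM in NKX2-5 shRNA, 203 and 218 in ZNF503 shRNA and 221 and 212 in WT. It was lower in NKX2-5 shRNA (log2 fold change -1.26 ± 0.09, adjusted p = 5.4e-08). KDR was already expressed in undifferentiated cells, at 224 and 239 CPM in NKX2-5 shRNA and 255 and 240 in ZNF503 shRNA. Its level at day 2 is therefore not particular to mesoderm in these cultures. APLNR and TBX6 were named after their values had been seen.

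In the NODAL pathway, 8 of 19 tested members were higher and 2 lower at 5% FDR, and the median of 0.16 was close to that of all genes. Among ligands, NODAL was higher as given above and GDF3 by 0.36, whereas GDF1 differed by -0.47 (adjusted p = 0.117) and shares its transcript with CERS1. The secreted inhibitor CER1 read 3765 and 3640 CPM in NKX2-5 shRNA, 620 and 738 in ZNF503 shRNA and 2015 and 2073 in WT. WT lay between the lines, which differed by 2.45 ± 0.08 (adjusted p = 6.2e-11). LEFTY1, another inhibitor, was higher by 0.75 and lay above WT in both lines, with 28.2 and 34.7 CPM in NKX2-5 shRNA, 17.7 and 19.7 in ZNF503 shRNA and 10.1 and 10.7 in WT. LEFTY2, a near copy of it with which it may share reads, differed by 0.16 (adjusted p = 0.578). The coreceptor CRIPTO, also known as TDGF1, was higher by 0.72 ± 0.07 and its relative CFC1, which has a near-identical copy in the genome, by 2.42 at under 1 CPM.

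Among the receptors of this pathway, ACVR2A, ACVR2B and ACVR1C did not pass the test (log2 fold changes -0.02, -0.17 and 0.28; ACVR2B passed without replicate 1 of ZNF503 shRNA, at -0.31, and without TMM factors, at -0.26, and ACVR2A was 0.09 without replicate 2 of ZNF503 shRNA), and ACVR1B was lower (-0.41). SMAD2, SMAD4 and FOXH1, which are the transducer, its partner and a nuclear cofactor, had log2 fold changes of 0.06, 0.08 and 0.06, none of which passed, and that of FOXH1 changed sign without replicate 2 of NKX2-5 shRNA (-0.19). SMAD3, the other receptor SMAD, was lower (-0.93 ± 0.13, adjusted p = 8.6e-05). SMAD7, an inhibitory SMAD, was higher by 0.81, and by 0.50 without replicate 2 of NKX2-5 shRNA. SKIL, a SMAD corepressor, was higher by 0.25. The calls of ACVR1B, GDF3 and SKIL were lost without replicate 1 of NKX2-5 shRNA (-0.41, 0.37 and 0.21) and without replicate 1 of ZNF503 shRNA (-0.34, 0.22 and 0.18), and those of GDF3 and SKIL also without replicate 2 of NKX2-5 shRNA (0.34 and 0.27).

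Genes of the WNT and BMP lists differed in both directions. DKK4, a secreted antagonist that binds the WNT coreceptor LRP6, read 1476 and 1550 CPM in NKX2-5 shRNA, 123 and 177 in ZNF503 shRNA and 485 and 495 in WT, a difference of 3.34 ± 0.13 (adjusted p = 1.6e-10). APCDD1, a membrane-bound WNT inhibitor, was lower in NKX2-5 shRNA, with 8.41 and 8.28 CPM against 37.2 and 44.1 in ZNF503 shRNA and 16.2 and 16 in WT (-2.28 ± 0.14). In both cases WT lay between the lines. The list of WNT targets, feedback genes and modulators had 9 of 26 tested members higher and 8 lower, and the list of WNT ligands had 3 of 11 in each direction, with a median of -0.48. Against WT the median of the WNT ligands was -1.11 in NKX2-5 shRNA and -1.27 in ZNF503 shRNA. At 5% FDR 5 of the 11 were lower than WT and 0 higher in NKX2-5 shRNA, and 6 were lower and 1 higher in ZNF503 shRNA. WNT11, a ligand of the noncanonical branch, was higher by 2.28 ± 0.42. WNT10B, a ligand of the canonical branch, had 2 counts in the NKX2-5 shRNA libraries together against 68 in ZNF503 shRNA, a ratio of 24.2 in favour of ZNF503 shRNA (95% counting interval 6.44 to 204; log2 fold change -4.42, and -7.46 without replicate 1 of NKX2-5 shRNA). CHRD, an organizer protein that binds BMPs, read 85.4 and 107 CPM in NKX2-5 shRNA, 12.6 and 18.3 in ZNF503 shRNA and 39.7 and 44.2 in WT (2.66 ± 0.16, adjusted p = 1.8e-08). In ZEB2 shRNA CHRD read 19.6 and 17.6 CPM, so that this line was below WT as well. BMP2, a ligand, was higher by 2.75 ± 0.15, at 31.7 and 32.9 CPM against 4.23 and 5.65 in ZNF503 shRNA and 24.9 and 26.0 in WT. FST, which binds activins and BMPs, read 14.9 and 12.7 CPM in NKX2-5 shRNA, 54.4 and 61.5 in ZNF503 shRNA and 21.5 and 19.2 in WT (-2.06 ± 0.15, adjusted p = 1.3e-07). Of 22 tested members of the BMP list 12 were higher and 4 were lower, with a median of 0.37.

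In the FGF list 9 of 33 tested members were higher and 9 lower at 5% FDR. FLRT3, a membrane protein that acts with FGF receptors, read 110 and 109 CPM in NKX2-5 shRNA, 15 and 18.8 in ZNF503 shRNA and 80.3 and 81.0 in WT (2.71 ± 0.12, adjusted p = 5.6e-10). Of the Notch pathway, 4 of 18 tested members were higher and 7 lower. LFNG, a glycosyltransferase that modifies Notch receptors, was higher by 2.26 ± 0.13, whereas the ligand JAG1, the receptor NOTCH1 and the target HEY2 were lower, with log2 fold changes of -1.15, -1.03 and -1.45. In the retinoic acid list 5 of 13 tested members were higher and 2 lower. CYP26A1, which degrades retinoic acid, read 485 and 556 CPM in NKX2-5 shRNA, 75.3 and 106 in ZNF503 shRNA and 658 and 710 in WT (2.53 ± 0.13, adjusted p = 3.8e-09). LRAT, which esterifies retinol and is not a member of that list, had the opposite order, with 11.9 and 11.5 CPM in NKX2-5 shRNA, 108 and 121 in ZNF503 shRNA and 12.0 and 14.1 in WT (-3.29 ± 0.12, adjusted p = 1.4e-10). For both genes the ZNF503 shRNA libraries stood apart from all other lines.

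**Figure D3:**
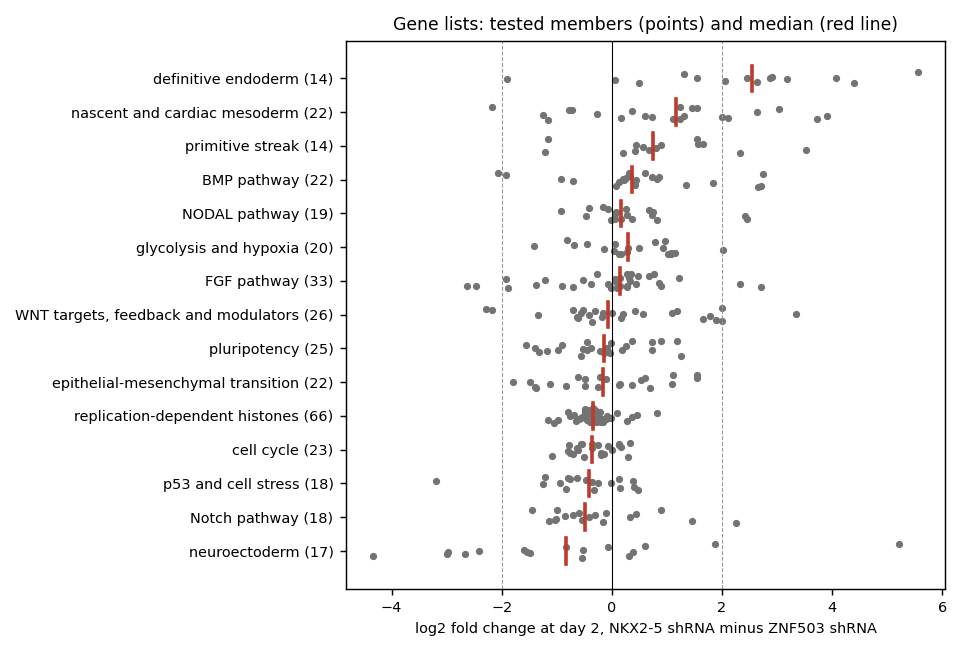
Log2 fold changes of the tested members (grey points, with their number beside the list name) of 15 gene lists at day 2, with the median as a red line and dashed lines at 4-fold. Endoderm, mesoderm and streak lists lie to the right with medians of 2.54, 1.17 and 0.74, and the neuroectoderm list lies to the left with a median of -0.83.

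The promoters of genes that differed were searched for 6 motifs of factors that act in the streak or in the pluripotent state, on both strands of windows from 250 bases before to 50 bases after the start (RefSeq, GRCh38.p14). The table held a promoter for 283 of the 388 higher genes, 198 of the 269 lower genes and 12562 of the 16521 genes tested. A TCF/LEF match (CTTTGAA or CTTTGAT) was in 4.95% of the higher, 5.05% of the lower and 4.22% of the tested promoters, beside 6.98% of all 27305 promoters. An NKX2-5 match (TNAAGTG) was in 7.42%, 11.1% and 7.28% of them, beside 10.3% of all. A T-box match (AGGTGTG) was in 5.30%, 3.54% and 3.54%, and a FOXH1-like match (TGTGGAT) in 3.18%, 2.53% and 1.62%, beside 4.59% and 2.74% of all. The E-box CAGGTG, bound by SNAIL and ZEB factors, was in 18.7%, 24.7% and 18.7%, and the octamer part TTTGCAT in 3.89%, 6.57% and 3.18%, beside 20.6% and 4.51% of all. AGGTGTG and CAGGTG can overlap by the letters AGGTG. These shares are given as a description without a test.

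Promoters of 3 genes that were higher and 2 that were lower at 5% FDR, of which GSC and NANOG are not among the 4-fold calls, are shown to place these letters in genes described here, with each match in capitals, 5′ to 3′ on the strand of the gene. CER1 (chr9:14722684-14722983, minus strand) holds the E-box in reverse complement 64 bases before its start. SHISA2 (chr13:26051967-26052266, minus strand) holds the T-box letters in reverse complement 154 bases before the start, and GSC (chr14:94770064-94770363, minus strand) the NKX2-5 letters in reverse complement from base 36 after it. NANOG (chr12:7789152-7789451, plus strand) holds the octamer part 120 bases before its start, and TRPM3 (chr9:71446922-71447221, minus strand) the E-box 87 bases before it.
CER1: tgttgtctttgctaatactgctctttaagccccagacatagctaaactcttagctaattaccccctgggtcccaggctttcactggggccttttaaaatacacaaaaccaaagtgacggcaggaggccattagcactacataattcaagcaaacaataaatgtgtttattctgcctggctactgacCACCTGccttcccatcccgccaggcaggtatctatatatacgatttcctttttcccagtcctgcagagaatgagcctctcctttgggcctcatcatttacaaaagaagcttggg
SHISA2: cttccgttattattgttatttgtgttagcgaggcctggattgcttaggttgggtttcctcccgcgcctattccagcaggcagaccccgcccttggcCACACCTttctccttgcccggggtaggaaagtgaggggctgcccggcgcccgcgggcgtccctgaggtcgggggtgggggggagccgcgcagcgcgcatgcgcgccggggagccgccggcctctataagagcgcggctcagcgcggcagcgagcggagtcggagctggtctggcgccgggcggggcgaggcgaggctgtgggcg
GSC: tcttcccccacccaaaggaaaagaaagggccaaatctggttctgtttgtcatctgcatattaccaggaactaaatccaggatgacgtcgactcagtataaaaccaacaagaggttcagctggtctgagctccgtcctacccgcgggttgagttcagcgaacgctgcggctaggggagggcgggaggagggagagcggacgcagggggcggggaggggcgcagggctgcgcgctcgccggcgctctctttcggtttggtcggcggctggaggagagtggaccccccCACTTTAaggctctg
NANOG: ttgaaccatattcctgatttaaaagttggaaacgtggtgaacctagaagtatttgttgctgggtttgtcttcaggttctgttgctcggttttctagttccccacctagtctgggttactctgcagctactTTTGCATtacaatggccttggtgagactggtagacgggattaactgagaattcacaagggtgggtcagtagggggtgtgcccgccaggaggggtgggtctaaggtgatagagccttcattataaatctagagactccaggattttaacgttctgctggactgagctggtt
TRPM3: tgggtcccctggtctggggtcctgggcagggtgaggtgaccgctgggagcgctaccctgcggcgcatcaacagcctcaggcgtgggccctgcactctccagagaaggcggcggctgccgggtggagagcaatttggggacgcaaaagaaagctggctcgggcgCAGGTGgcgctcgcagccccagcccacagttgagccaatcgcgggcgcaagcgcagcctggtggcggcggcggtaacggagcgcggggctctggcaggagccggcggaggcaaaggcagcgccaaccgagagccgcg

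Genes of the undifferentiated state were partly lower in NKX2-5 shRNA cells. Of 25 tested members of the pluripotency list, 10 were lower and 6 higher at 5% FDR, none by 4-fold. NANOG, a homeobox gene of the pluripotent state, read 49.9 and 50.6 CPM in NKX2-5 shRNA, 115 and 111 in ZNF503 shRNA and 50.3 and 49.5 in WT. The ZNF503 shRNA libraries were the only ones above this common level, with a log2 fold change of -1.17 ± 0.10 (adjusted p = 3.6e-07). SOX2 and USP44, a HMG box factor and a deubiquitinase of ESCs, had the same order, with log2 fold changes of -0.98 ± 0.11 and -1.32 ± 0.11. POU5F1 read 589 and 691 CPM in NKX2-5 shRNA, 680 and 679 in ZNF503 shRNA and 480 and 482 in WT. Its difference of -0.09 ± 0.08 did not pass the test (adjusted p = 0.413) and was 0.03 without replicate 1 of NKX2-5 shRNA. KLF5 and DPPA2 were higher in NKX2-5 shRNA cells, by 1.26 and 1.19.

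Genes of the neuroectoderm were lower in NKX2-5 shRNA cells, with 10 of 17 tested members lower and 4 higher at 5% FDR, 5 and 1 of them by at least 4-fold, and a median of -0.83. ZIC1, a zinc finger gene of the neural plate, read 10.7 and 11.1 CPM in NKX2-5 shRNA, 91.0 and 81.9 in ZNF503 shRNA, 30.5 and 34.2 in WT and 40.0 and 41.4 in ZEB2 shRNA. WT lay between the lines, which differed with a log2 fold change of -2.99 ± 0.11 (adjusted p = 1.6e-10). MAP2, a neuronal microtubule protein, read 1.28 and 1.41 CPM in NKX2-5 shRNA, 12.3 and 8.5 in ZNF503 shRNA and 2.88 and 2.71 in WT. The homeobox gene GBX2 and the SOX genes SOX1 and SOX3 were below 10 CPM in all day 2 libraries, with log2 fold changes of -2.66, -2.41 and -4.33. For these 3 genes the ZNF503 shRNA libraries were above all others of day 2. GBX2 was higher in undifferentiated cells of both lines, at 20.2 and 21.6 CPM in NKX2-5 shRNA and 31.2 and 30.1 in ZNF503 shRNA. The value for SOX3 was -9.51 without replicate 1 of NKX2-5 shRNA, where the remaining library had 0 counts. PAX6, the defining factor of human neuroectoderm, was higher in NKX2-5 shRNA but at 1.17 and 0.264 CPM against 2 counts in the ZNF503 shRNA libraries together, a ratio of 49.2 (95% counting interval 13.1 to 415). Its call was lost without replicate 1 of NKX2-5 shRNA (log2 fold change 3.64, adjusted p = 0.0556).

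**Figure D4:**
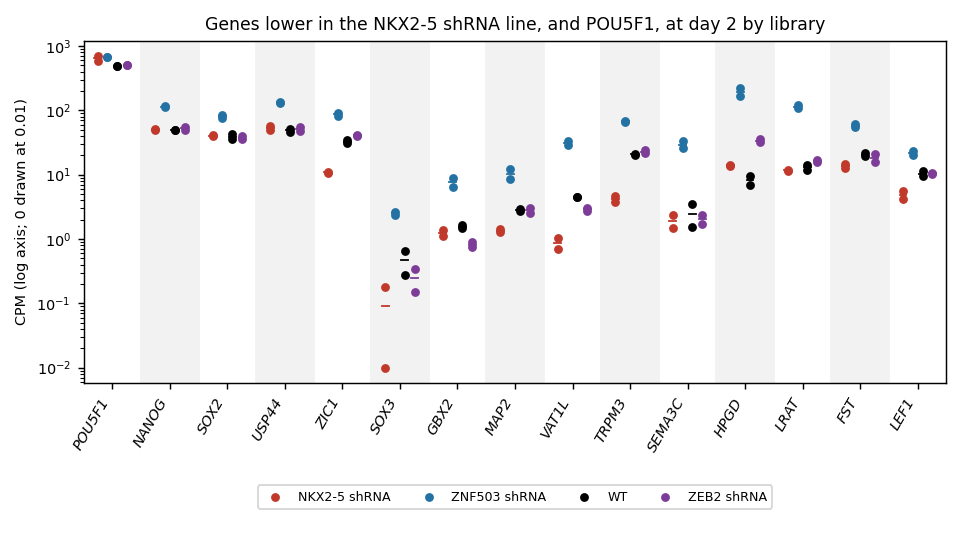
CPM on a log axis of POU5F1 and 14 genes that were lower in NKX2-5 shRNA cells, in each day 2 library, with 2 points per line, a dash at their mean and 0 drawn at 0.01. For NANOG, SOX2, USP44, LRAT and HPGD the blue points of ZNF503 shRNA lie above 3 other lines, and for ZIC1, TRPM3 and VAT1L WT lies between the lines.

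Several defining markers of other cell types that the cultures could hold were near the limit of detection, and other genes of these lists were above it. TNNT2 and MYH6, contractile genes of cardiomyocytes, and CDH5 and PECAM1 of endothelium had at most 14 counts in any day 2 library, and CDX2, GATA3 and TFAP2A of trophectoderm or amnion at most 28. TAL1, a bHLH factor of blood progenitors, had 2 counts in the NKX2-5 shRNA libraries together, against 1.43 and 1.14 CPM in ZNF503 shRNA, a ratio of 53.3 in favour of ZNF503 shRNA (95% counting interval 14.5 to 444), and its call was lost with DESeq2 (log2 fold change -5.01, adjusted p = 0.106). TEK, an endothelial receptor, was at 0.201 and 0.0881 CPM in NKX2-5 shRNA, at 2.70 and 2.47 in ZNF503 shRNA and at 1.47 and 1.99 in WT (-3.97 ± 0.46, adjusted p = 1.2e-05). ISL1, a LIM homeobox gene of cardiac progenitors, was higher in NKX2-5 shRNA, with 3.78 and 3.52 CPM against 0.318 and 0.190 in ZNF503 shRNA and 2.02 and 2.58 in WT (3.67 ± 0.34, adjusted p = 1.5e-06). At 5% FDR 4 of 16 tested cardiac genes were higher and 2 lower, 2 of 10 blood and endothelium genes were higher and 3 lower, 3 of 13 trophectoderm, amnion and surface ectoderm genes were higher and 3 lower, and 3 of 6 HOX and CDX genes were higher and 2 lower.

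Among genes at 20 CPM or more in the higher line, the 8 largest rises were those of IL1RL1, CXCR4, RBM46, CD177, ANGPT2, MYOF, GRIK2 and SOX17. IL1RL1, the receptor of interleukin 33, read 23.9 and 23.1 CPM in NKX2-5 shRNA, 0.341 and 0.237 in ZNF503 shRNA and 5.89 and 4.17 in WT (6.20 ± 0.26, adjusted p = 3.8e-10). CD177, a surface glycoprotein known from neutrophils, read 71.4 and 79.7 CPM, 2.40 and 1.71 CPM, and 38.7 and 48.3 CPM in the same order (5.11 ± 0.18), ANGPT2, a ligand of TEK, 129 and 119, 4.8 and 5.6, and 41.7 and 44.6 (4.61 ± 0.13), and GRIK2, a glutamate receptor, 79.7 and 69.8, 3.72 and 4.08, and 28.2 and 27.7 (4.28 ± 0.13). In these 4 genes WT lay between the lines. MYOF, a membrane repair protein, was higher by 4.46 ± 0.23, with 20.2 and 20.8 CPM against 0.920 and 0.949. RBM46, an RNA-binding protein of the germline, differed from the rest in that NKX2-5 shRNA alone was high, with 89.1 and 77.6 CPM against 2.47 and 1.80 in ZNF503 shRNA, 4.83 and 5.69 in WT and 12.1 and 11.3 in ZEB2 shRNA (5.21 ± 0.17, adjusted p = 3.8e-11).

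The 8 largest falls by the same rule were those of VAT1L, TRPM3, SEMA3C, HPGD, VSNL1, LRAT, THBS2 and ZIC1. VAT1L, a homologue of a synaptic vesicle membrane protein, read 1.02 and 0.705 CPM in NKX2-5 shRNA, 33.4 and 28.6 in ZNF503 shRNA and 4.42 and 4.50 in WT (-5.09 ± 0.22, adjusted p = 5e-10). TRPM3, a cation channel, read 3.79 and 4.58 CPM, 69.4 and 66.6 CPM, and 20.3 and 21.0 CPM in the same order (-4.05 ± 0.14). HPGD, which inactivates prostaglandins, read 14.3 and 13.6 CPM in NKX2-5 shRNA, 220 and 166 in ZNF503 shRNA and 9.58 and 6.89 in WT (-3.79 ± 0.16). For HPGD the ZNF503 shRNA libraries stood above every other line. The guidance ligand SEMA3C (-4.0 ± 0.30), the calcium sensor VSNL1 (-3.46 ± 0.26) and the matrix protein THBS2 (-3.13 ± 0.16) had that order as well, each above 25 CPM in both ZNF503 shRNA libraries and below 7 in all others.

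Several of the largest folds came from genes that were absent, or nearly so, from one line. ZNF560 had 831 counts in the NKX2-5 shRNA libraries and 0 in the ZNF503 shRNA libraries, so that it was at least 123-fold higher (against a floor of 3 counts per library), and it read 1.92 and 1.19 CPM in WT and 0 in both ZEB2 shRNA libraries. GPR151 and SPESP1, an orphan receptor and a sperm protein, were at least 22.3-fold and at least 18.6-fold higher in NKX2-5 shRNA, with 0 counts in ZNF503 shRNA. IAH1, an esterase, had 444 counts against 1 (ratio 625, 95% counting interval 112 to 24729), MAEL, a piRNA pathway protein, 372 against 3 (ratio 174, 59.2 to 850), the hormone gene SST 166 against 2 (ratio 117, 31.8 to 972) and the transporter gene ATP13A5 145 against 2 (ratio 102, 27.7 to 850). ZNF662 read 18.6 and 16.8 CPM against 0.102 and 0.0949 in ZNF503 shRNA and 2.19 and 1.39 in WT (7.41 ± 0.33). In the other direction DAZL, a germline RNA-binding protein, had 0 counts in NKX2-5 shRNA against 152, which is at least 13.1-fold lower. The LIM homeobox gene LHX4 had 711 counts in ZNF503 shRNA against 2 (ratio 253, 69.7 to 2090) and the homeobox gene SIX6 362 against 2 (ratio 129, 35.4 to 1066). INSM1, MGAT4C and SLC1A2, a neuroendocrine zinc finger factor, a glycosyltransferase and a glutamate transporter, had log2 fold changes of -5.42, -5.04 and -4.57, at under 4 CPM throughout. These intervals and floors cover counting error only. On the scale of log2(CPM + 1) the differences of low genes are smaller, for example 1.69 for FOXF1, 1.89 for ISL1, -1.65 for TEK, -1.43 for FAS and 4.25 for IL1RL1. SPESP1 read 0 in WT and LHX4 at most 0.132 CPM, so that in these 2 genes WT was at the level of the lower line, whereas GPR151 read 1.03 and 2.12 CPM in WT, at the level of the higher line.

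Cell cycle genes were lower in NKX2-5 shRNA cells by small amounts. Of 23 tested members 12 were lower and 2 higher at 5% FDR, none by 4-fold, with a median of -0.37. MCM4, a subunit of the replicative helicase, read 205 and 217 CPM in NKX2-5 shRNA, 446 and 450 in ZNF503 shRNA and 267 and 288 in WT (-1.09 ± 0.07, adjusted p = 5.6e-08). Of 66 tested replication-dependent histone genes, 46 were lower and 4 higher, with a median of -0.34. When 1 library was left out, this median ranged from -0.47 to -0.19. Summed over these genes, the replicates were uneven, with 15909 and 17890 CPM in NKX2-5 shRNA and 22651 and 18937 in ZNF503 shRNA. Against WT, 61 of these 66 genes were higher in ZNF503 shRNA cells and 14 in NKX2-5 shRNA cells. At day 0 the direction between the lines was the opposite, with 38 of 68 histone genes higher in NKX2-5 shRNA at 5% FDR and a median of 0.42, beside 12.4% of all genes tested at day 0 that were higher, 13.4% that were lower and 25.8% in all. Histone genes are multicopy genes that can share reads. Of 18 tested p53 and stress genes, 8 were lower and 2 higher, among them the death receptor gene FAS at 0.255 and 0.264 CPM against 2.43 and 2.37 (-3.20 ± 0.42, adjusted p = 3.5e-05).

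Glycolysis and hypoxia genes were higher for 10 of 20 tested members and lower for 4, with a median of 0.29. At day 0 the median was 0.58 with 11 of 20 tested members higher, beside 12.4% of all genes tested at that day. PGK1, a glycolytic kinase, read 999 and 872 CPM in NKX2-5 shRNA, 450 and 441 in ZNF503 shRNA and 395 and 394 in WT (1.07 ± 0.08, adjusted p = 8.6e-08). For PGK1 the NKX2-5 shRNA libraries lay further from WT than the ZNF503 shRNA libraries did. Summed over the tested members of the list, ZEB2 shRNA was also above WT, with 4465 and 4631 CPM against 3429 and 3525. The sums were 5011 and 4877 CPM in NKX2-5 shRNA and 3737 and 3804 in ZNF503 shRNA. VEGFA, an angiogenic ligand, was higher by 2.02 ± 0.10, at 84.5 and 89.2 CPM against 22.1 and 20.5, with WT between the lines, and the glucose transporter gene SLC2A1 was lower (-1.41 ± 0.14).

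Of 22 tested genes of epithelial-mesenchymal transition, 6 were higher and 9 lower. The matrix protease gene MMP14 was higher by 1.54 ± 0.13 and the cadherin gene CDH11 and the E-box factor gene ZEB1 were lower (-1.49 and -1.80). Collagen genes were higher for 8 of 37 and lower for 13. Against WT, 23 of the 37 were lower and 0 higher in NKX2-5 shRNA, and 17 were lower and 3 higher in ZNF503 shRNA. Of all genes tested, 13.6% and 13.8% were lower than WT in these lines. COL5A2, a fibrillar collagen, was higher by 1.39 ± 0.10 between the lines but below WT in both. It read 140 and 134 CPM in NKX2-5 shRNA, 55.2 and 49.2 in ZNF503 shRNA and 188 and 181 in WT. Laminin and integrin genes were higher for 6 of 26 and lower for 10, with the integrin genes ITGB8 and ITGA2 lower (-1.79 and -1.70). Of 19 tested imprinted genes 8 were higher and 5 lower. PEG3, a paternally expressed zinc finger gene, read 0.219 and 0 CPM in NKX2-5 shRNA, 1.45 and 0.760 in ZNF503 shRNA, 1.06 and 0.960 in ZEB2 shRNA and 11 and 11.5 in WT, so that all 3 knockdown lines were far below WT. Its log2 fold change of -2.99 between the lines became -8.44 without replicate 1 of NKX2-5 shRNA, where the remaining library had 0 counts. Of 21 interferon-stimulated genes 7 were higher and 3 lower. In the germline list 5 of 12 tested genes were higher and 1 lower, with the kinase gene STK31 at 20.0 and 14.5 CPM in NKX2-5 shRNA, 2.28 and 2.04 in ZNF503 shRNA and 19.8 and 10.7 in WT (2.98 ± 0.26, adjusted p = 8.1e-07). Of 456 tested genes with ZNF symbols 53 were higher and 66 lower, with 6 and 2 called at 4-fold.

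Part of the difference between the lines was present in undifferentiated cells. At day 0, 1181 of 16891 genes tested differed by at least 2-fold at 10% FDR (6.99%), 647 higher (3.83%) and 534 lower (3.16%), and 305 of them differed by 4-fold (1.81%). Of the 388 genes higher at day 2, 264 were tested at day 0 and 102 of these (38.6%) were already higher, 4 were lower, and the median log2 fold change was 0.86 at day 0 beside 2.77 at day 2. Of the 269 genes lower at day 2, 256 were tested and 64 (25.0%) were already lower, 21 were higher, and the median was -0.30 beside -2.58. The libraries of the days are separate. Across 16136 genes tested at both days the Spearman correlation of the log2 fold changes was 0.257, given as a description since genes are not independent replicates. ZNF662 (6.94), RBM46 (5.07), CER1 (2.88), TBX3 (2.43), ZIC1 (-2.18) and APCDD1 (-2.46) already differed at day 0, in the direction of day 2. CER1 was then at 1.89 CPM or less in these lines. LHX1 (0.15, adjusted p = 0.844) and NANOG (0.21, adjusted p = 0.0817) did not pass the test at day 0, and OTX2 and GSC were lower in NKX2-5 shRNA cells then (-0.74 and -1.04).

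**Figure D5:**
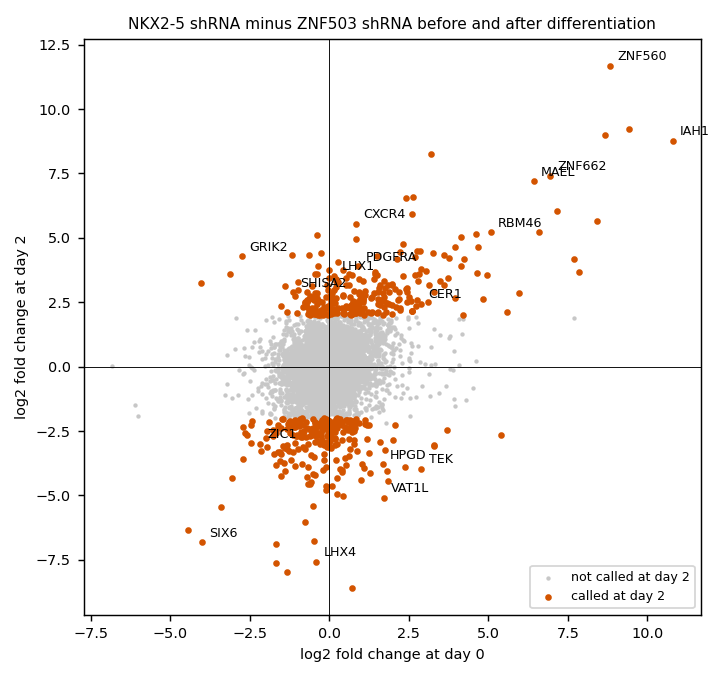
Log2 fold change (NKX2-5 shRNA minus ZNF503 shRNA) at day 2 against that at day 0 for the 16136 genes tested at both days, with genes called at day 2 in orange. ZNF560, IAH1, ZNF662, MAEL and RBM46 lie far from 0 on both axes, LHX1 lies near 0 at day 0, CXCR4 and PDGFRA lie at 0.84 and 0.91 there, and GRIK2, VAT1L, HPGD and TEK change sign.

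The change from day 0 to day 2 was then compared between the lines by an interaction term. It passed 4-fold and 10% FDR for 698 of 17345 genes tested (4.02%), with a larger rise or smaller fall in NKX2-5 shRNA for 303 (1.75%) and the reverse for 395 (2.28%). Of the 388 genes higher at day 2, 146 passed in the same direction, and of the 269 lower genes 159 did. The day 2 difference that chose these genes is a term of the interaction, so that their direction in it is partly fixed by the choice. Only 264 of the 388 and 256 of the 269 had enough counts to be tested at day 0. For some of the others the term had no usable SE, as for IL1RL1 (6.20 ± 10782.36), FOXF1 (3.68 ± 7040.42) and GPR151 (5.46 ± 12643.65). The 146 and the 159 can therefore not be compared as shares. Definitive endoderm had a median difference between the lines of 0.43 at day 0 and 2.54 at day 2, the primitive streak 0.15 and 0.74, nascent and cardiac mesoderm 0.35 and 1.17, and neuroectoderm -0.47 and -0.83. Each median is over the members tested at that day. These numbered 18 and 14 for endoderm, 13 and 14 for the streak, 18 and 22 for mesoderm and 16 and 17 for neuroectoderm. The medians of the 2 days are therefore not of the same set of genes. TEK and VAT1L were higher in NKX2-5 shRNA cells at day 0, by 2.89 and 1.72, and lower at day 2.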

How the data were processed

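RNA-seq of stranded total RNA was mapped to hg19 (GRCh37) by the authors with TopHat (2.0.14, Bowtie2 2.2.1.0 per the submitters' processing notes), and reads were counted per RefSeq gene region with RSeQC. The values are raw counts as deposited by the authors, in whole numbers and without normalization. Whether counting used strand is not given in the sources used here, so overlapping and antisense genes are uncertain. Of 41627 RefSeq rows, 40285 were matched to a symbol (97.1% of the counts), and of several rows of a gene the one with most counts was used, which left 23189 genes. In 4 columns of day 10 the values run past the accessions, and these columns were not used.

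From these counts the differences were computed with edgeR 4.0.16 (R 4.3.3): TMM scaling, filterByExpr, glmQLFit and glmQLFTest on the 8 libraries of a day, or all 16 for the interaction of line and day, with p-values adjusted by Benjamini-Hochberg across every gene tested and the SE taken as the absolute log2 fold change over the square root of F. CPM values are scaled by the TMM factors. Calls required 4-fold and 10% FDR at day 2 and in the interaction and 2-fold and 10% FDR at day 0, and list members were counted at 5% FDR. With 14630405 to 87850810 counts per day 2 library, a count of 3 equals 0.0341 to 0.205 CPM, and this depth sets the limit of detection. The scripts were tested on simulated data. The alternatives were other scalings, filters and thresholds, DESeq2 1.42.0, the exact test of edgeR, the sum of all rows of a gene, the loss of each library and a replicate block. Promoter windows came from RefSeq (GRCh38.p14).

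The members, the 27 gene lists and the rule for named genes were chosen with earlier results of these data known. The rule took the targeted genes, the 8 largest rises and 8 largest falls at a level of 1 CPM and again of 20 CPM among the calls without overlap between the lines, all tested members of the primitive streak and NODAL lists, and up to 5 members per other list with the largest change at 5% FDR. LOC, antisense, small RNA, XIST and Y-linked genes were passed over. Markers of cell types were named from a fixed list, and FOXA1, APLNR and TBX6 after their values had been seen. Under each list, fewer than 5 members are described where they repeat others. Some genes that the rule names are not reported here.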

Additional observations from a re-analysis of the deposited data

Results flagged for a closer look

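These results stand out because the change from day 0 to day 2 differed between the NKX2-5 shRNA and ZNF503 shRNA lines by the interaction term of the edgeR fit. It passed 4-fold and 10% FDR for 698 genes. Of the 16 genes at 20 CPM or more with the largest differences at day 2, 5 of those higher in NKX2-5 shRNA cells passed it. These genes were chosen for their difference at day 2, which is a term of the interaction, so that its direction is partly fixed by the choice. IL1RL1, the largest rise, had too few counts to be tested at day 0. Its interaction of 6.20 had an SE of 10782.36, so that its failure to pass says nothing about its change. ANGPT2 was not tested at day 0 either, and its interaction had an SE of 1.51, beside 0.26 for CXCR4. The interaction log2 fold change was 7.02 for GRIK2, which was lower in NKX2-5 shRNA at day 0 (-2.75) and higher at day 2 (4.28), 5.45 for CD177, 4.68 for CXCR4, 4.31 for ANGPT2 and 2.2 for MYOF. In the other direction it was -6.83 for VAT1L, -5.49 for HPGD, -4.42 for SEMA3C, -4.19 for LRAT, -4.09 for VSNL1, -2.67 for TRPM3 and -2.31 for THBS2. VAT1L and HPGD were higher in NKX2-5 shRNA at day 0 (1.72 and 1.68) and lower at day 2 (-5.09 and -3.79).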

How the results depend on the processing

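Of the 103 named genes that passed 5% FDR at day 2, 93 passed it in the same direction under every alternative that gave them a value, 9 were lost when 1 library was left out (FOXA1, MESP1, GDF3, ACVR1B, SKIL, PAX6, WNT3, SP5 and FGF8) and 6 under another alternative (MESP1, WNT3, SP5, GDF3 and SKIL, which are also among the 9, and TAL1 with DESeq2). On the scale of log2(CPM + 1) the differences of 37 of 115 named genes were smaller by over 0.5 and 0 were larger by that much. The 657 calls became 356, all of them among the 657, with a filter at a mean of 1 CPM, since low genes were no longer tested, 1961 with a test against 1.5-fold and 6520 at 5% FDR without a fold threshold. Without a fold threshold the day 0 calls were 4366 and the interaction calls 4044. When 1 library was left out, a group held 1 library and the filter for low counts was run again, so that the genes tested could differ. Day 2 calls then rose above the 657 in every case, and these totals are not a measure of stability. Without replicate 1 of ZNF503 shRNA, 143 of the 657 calls were not made, and without replicate 1 of NKX2-5 shRNA 122 were not. The number of calls with DESeq2 was 611.

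The replicate numbers did not pair the libraries, with correlations of the replicate differences between 0.0183 and 0.176. With a replicate block the calls were 658 at day 2, 1135 at day 0 and 688 in the interaction, and no named gene lost its call.

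Of 27 list medians 18 kept their sign under all 18 alternatives. When 1 library was left out, the median ranged from -0.78 to 0.57 for HOX and CDX genes, from -0.09 to 0.18 for blood and endothelium, from -0.10 to 0.44 for cardiac genes, from -0.24 to 0.02 for collagens, from -0.16 to 0.13 for WNT targets, feedback genes and modulators, from -0.04 to 0.02 for genes with ZNF symbols and from -0.29 to 0.02 for epithelial-mesenchymal transition. Other medians that changed sign were those of HOX and CDX genes (0.00) and collagens (-0.11) without a filter, of HOX and CDX genes (-0.07), WNT ligands (0.53) and trophectoderm, amnion and surface ectoderm (0.08) with a filter at 1 CPM, and of blood and endothelium (-0.08) without TMM. The cause was not tested. Of genes that missed the test, SMAD2 (-0.03), SMAD4 (-0.01) and FOXH1 (-0.03) changed sign without TMM, and when 1 library was left out ZNF503 ranged from -0.25 to 0.62, TBXT from -0.07 to 0.44, ACVR2A from -0.14 to 0.09, FOXH1 from -0.19 to 0.28 and POU5F1 from -0.21 to 0.03.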
